A study of Mus musculus with 12 samples.

Results

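The genes described here are 42 ribosome biogenesis factors, followed in the C2C12 line of mouse skeletal muscle, whose libraries are labelled as myoblasts. They were listed by name as nucleolar proteins with known roles in ribosome assembly. No threshold on measured values entered the rule, but the list was drawn up with earlier results of these data known. All 42 were found among the 54532 genes of the deposited count table. Dishes of confluent cells had received perfluorooctanesulfonate (PFOS, a persistent fluorinated surfactant) at 0, 2 or 6 µM for 24 h, and messenger RNA was sequenced in 4 libraries per dose, 12 in all. The labels name no difference in genotype and no other agent, the vehicle given to the 0 µM dishes is not given in the sources used here, and the results describe a single cell line. Whether the libraries of a dose stem from different cultures is not stated, and the p-values therefore measure only the spread between these libraries, which may be technical.

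Ribosomes are built in the nucleolus. RNA polymerase I (Pol I) transcribes a long precursor of ribosomal RNA, and small nucleolar ribonucleoproteins (snoRNPs) guide the methylation and pseudouridylation of its nucleotides. The small subunit processome and the large subunit assembly factors fold, cleave and package the precursor with ribosomal proteins, and late factors accompany each subunit to the cytoplasm. The factors are in demand in growing cells, their genes are known as targets of the transcription factor Myc, and in muscle their output is known to rise with growth and to change as myoblasts stop dividing and fuse. The 42 genes were sorted by role into 4 genes of Pol I transcription, 16 of the small subunit, 11 of the large subunit, 8 of the snoRNPs and 3 whose products act at several steps.

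Libraries held 30206155 to 50351082 counts, with 0 µM libraries between 30206155 and 45644739. Levels are given as CPM, the usual scaling of a gene's reads to the library's total, with totals adjusted by TMM factors, which lay between 1.012 and 1.021 at 0 µM and between 0.9844 and 0.9996 at 2 and 6 µM. Across all tested genes 3 libraries stood farthest from their dose's mean, 0 µM replicate 1 (root mean square distance 0.402 on the log2 scale), 6 µM replicate 2 (0.424) and 6 µM replicate 3 (0.422), against 0.339 to 0.39 in the other 9. Results that rest on them are also given without them. Of 10 myoblast markers, Pax7 and Msc stayed under 1 CPM in every library. The defining markers of other cell types were at 0 or under 1 CPM apart from Fabp4, Cdh5, Cd68, Krt14 and Tubb3, whose lists summed to 5.63 to 9.18 (adipocyte), 4.5 to 7.17 (endothelial), 0.324 to 1.52 (immune), 18.0 to 23.0 (epithelial) and 14.1 to 25.8 CPM (neural).

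At 6 µM against 0 µM, 15 of the 42 factors rose and none fell. The share of all 16038 tested genes called higher in this comparison was 4.58%, and the share called lower was 3.66%. Calls were made with the quasi-likelihood test of edgeR, at a p under 0.05 after Benjamini-Hochberg adjustment over all tested genes. At 2 µM against 0 µM, 5 factors rose and none fell, against 1.61% of tested genes called higher and 0.742% called lower (258 and 119 genes, or 184 and 134 with upper-quartile scaling in place of TMM). At 6 µM against 2 µM, 1 factor rose and none fell, where 0.561% of tested genes were called higher and 0.549% lower. At an unadjusted p under 0.05, the numbers of factors higher were 26 at 6 against 0 µM, 12 at 2 against 0 µM and 11 at 6 against 2 µM, and none was lower. Of all 16038 tested genes, 1732, 1264 and 922 were higher at that threshold in the same comparisons, and 1726, 1001 and 1085 were lower. DESeq2 and limma-voom called none lower either. In bulk libraries such as these, a change in the number of cells of a type and a change in RNA per cell cannot be told apart.

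The fitted differences were small and mostly upward. The median log2 fold change of the 42 factors was 0.16 at 6 µM against 0 µM, beside -0.016 over all tested genes, and their range was -0.06 to 0.41. At 2 µM against 0 µM the median was 0.094, beside -0.011 over all tested genes, with a range of -0.08 to 0.33. The fitted value was above 0 for 41 of the 42 factors at 6 µM and for 39 of them at 2 µM, where 46.4% and 47.1% of all tested genes were above 0. Nop9 was the gene below 0 at 6 µM (log2 fold change -0.06, 95% interval -0.18 to 0.07), and Nop9, Nolc1 and Bop1 were below 0 at 2 µM. The comparisons of 2 and 6 µM with 0 µM share the same 4 libraries without PFOS.

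**Figure D1:**
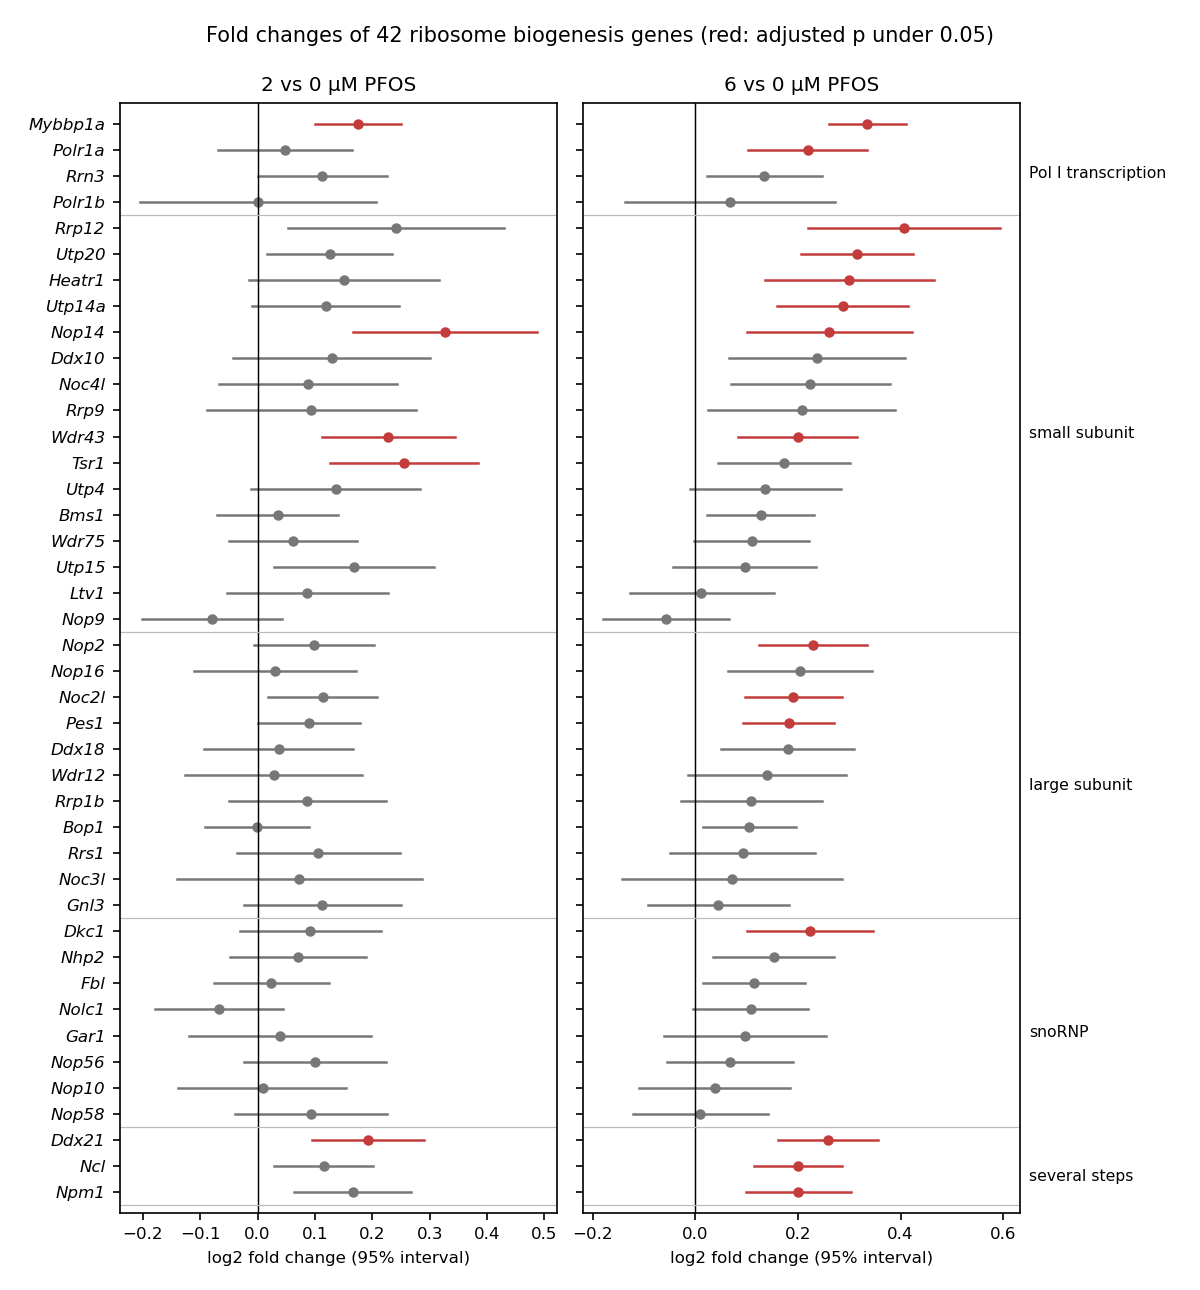
Log2 fold changes of the 42 ribosome biogenesis genes at 2 µM (left) and 6 µM (right) against 0 µM PFOS, ordered by role, with 95% intervals from edgeR's fit; red marks an adjusted p under 0.05. At 6 µM 41 of the 42 points lie to the right of 0 and 15 are red, at 2 µM 39 lie to the right of 0 and 5 are red.

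The separation between libraries gave a like picture. All 4 libraries at 6 µM lay above all 4 at 0 µM for 18 factors, against 6.39% of all tested genes, and no factor showed the reverse, against 6.15%. For 2 against 0 µM, 7 factors had all treated libraries above (4.77% of tested genes) and none below (3.6%). For 6 against 2 µM, 10 factors had all libraries of the higher dose above (4.45% of tested genes) and none below (4.15%). Summed over the 42 genes, the level was 4412 ± 209 CPM at 0 µM, 4800.0 ± 14.2 CPM at 2 µM and 5027 ± 147 CPM at 6 µM (SD, n = 4). The sums were 4203 to 4697 CPM at 0 µM, 4790.3 to 4821 CPM at 2 µM and 4877 to 5229.7 CPM at 6 µM, so no dose overlapped another, although Npm1 and Ncl supply a large part of each sum.

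Weighting each gene equally gave less separation between 0 and 2 µM. The median level of the 42 genes, as log2(CPM + 0.5) relative to each gene's mean over the 12 libraries, was -0.004, -0.084, -0.094 and -0.167 in 0 µM replicates 1 to 4. It was 0.011, -0.016, 0.022 and 0.017 in the libraries at 2 µM, and 0.053, 0.134, 0.07 and 0.053 in those at 6 µM. The 4 libraries at 6 µM stood above the other 8, while 0 µM replicate 1 fell within the range of the 2 µM libraries. Without that replicate, the median log2 fold change of the 42 genes was 0.17 at 6 µM and 0.12 at 2 µM.

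**Figure D2:**
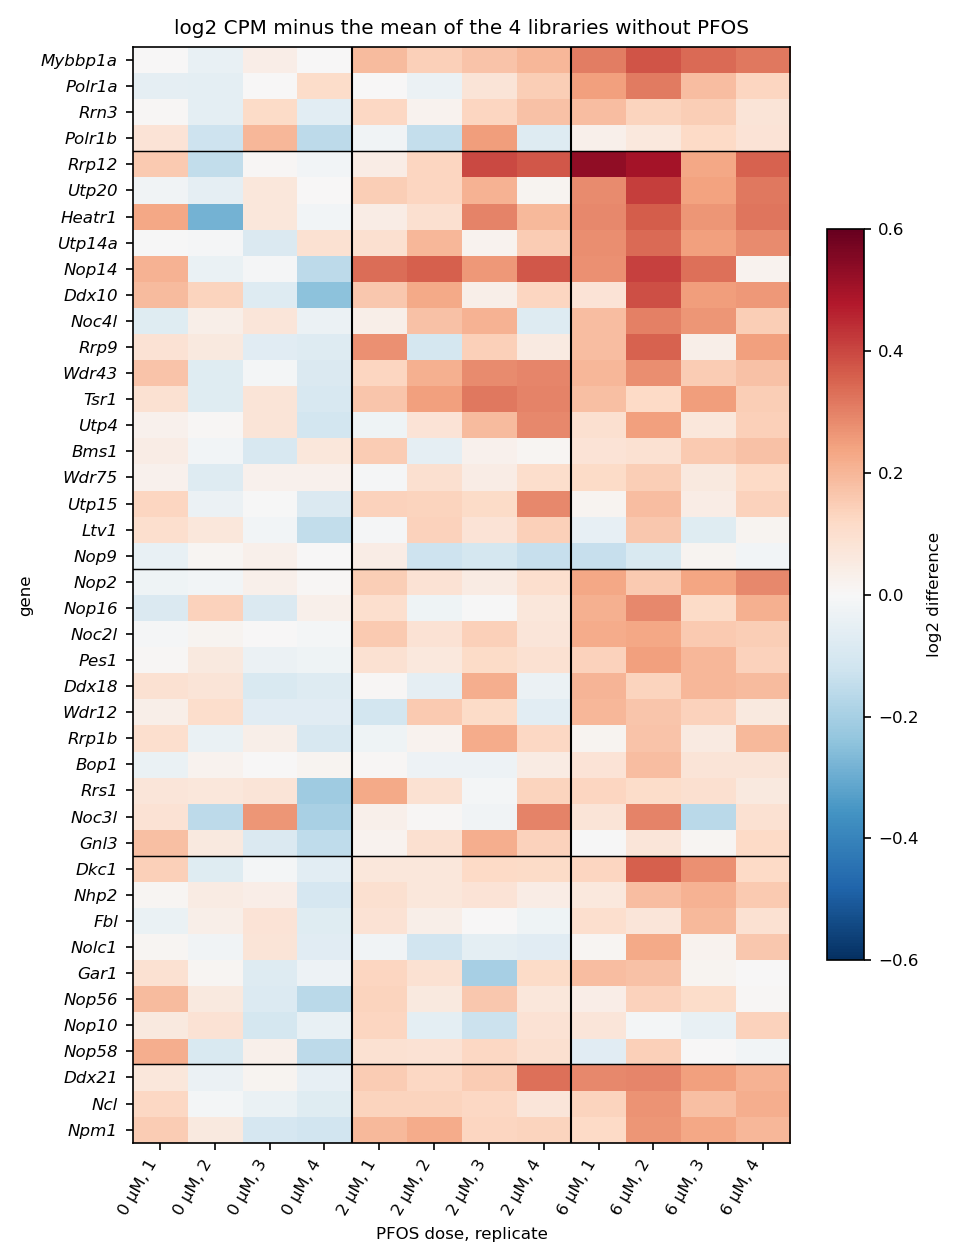
Level of each of the 42 genes in each of the 12 libraries, as log2 CPM minus the gene's mean over the 4 libraries at 0 µM (red higher, blue lower), with genes ordered by role and by fold change at 6 µM within a role. Most rows turn red toward 6 µM, the Mybbp1a row does so in every treated library, and the 0 µM replicate 1 column is redder than the other 0 µM columns for Nop14, Nop58 and Wdr43.

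Other measured features moved with dose beside the 42 genes. Of 20 cell cycle genes, 3 rose at 6 µM (Rrm2, Ccnd1 and Mcm2) and none fell, their median log2 fold change was 0.047, and their summed level was 4810 to 4940 CPM at 0 µM, 4930 to 5160 CPM at 2 µM and 4970 to 5100 CPM at 6 µM. Of 12 myotube markers, 10 were tested, 6 fell at 6 µM (Mef2c, Actc1, Myog, Mylpf, Acta1 and Myh3) and none rose. The summed level of the 12 was 104 to 133 CPM at 0 µM, 88.5 to 101 CPM at 2 µM and 78.9 to 85 CPM at 6 µM. Among the myoblast markers, Myod1, Chrna1 and Cdh15 fell at 6 µM. Over the 9 tested genes of that list the median log2 fold change at 6 µM was -0.309, and 1 of them was above 0. The summed level of the list, which is weighted to its most abundant genes, was 4200 to 4600 CPM at 0 µM and 4450 to 4670 CPM at 6 µM. The calls of Myh3 (adjusted p = 0.0525 without 0 µM replicate 4) and of Cdh15 (lost in 7 of 12 fits without a single library, up to 0.128 without 6 µM replicate 3) did not hold without single libraries. Fabp4, the adipocyte marker, rose at 6 µM from 5.80 ± 0.168 to 7.99 ± 1.22 CPM (SD, n = 4), a call lost in 6 of those 12 fits (adjusted p up to 0.123 without 6 µM replicate 3), while Adipoq was at 0. The part of cell cycle, of differentiation and of the lower depth of 2 of the 0 µM libraries in the levels of the 42 genes was not tested.

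**Figure D3:**
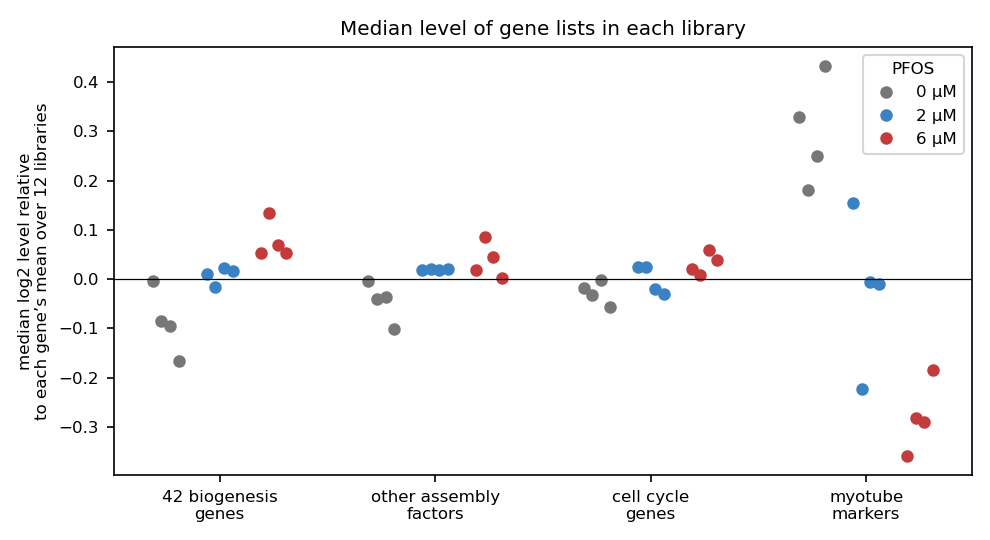
Median level of 4 gene lists in each library (1 point per library, 4 per dose), as log2(CPM + 0.5) relative to each gene's mean over the 12 libraries. The 42 biogenesis genes are highest at 6 µM (0.053 to 0.134), and the other assembly factors overlap between 2 and 6 µM. The cell cycle genes are higher at 6 µM (0.008 to 0.06) than at 0 µM (-0.056 to -0.002). The myotube markers are lower at 6 µM (-0.358 to -0.184) than at 0 µM (0.182 to 0.432), and their 6 µM points overlap those at 2 µM (-0.222 to 0.154).

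Myc, whose product is a transcription factor known to bind the E-box CACGTG, was called higher at 2 and at 6 µM. It went from 92.8 ± 3.04 CPM at 0 µM to 123 ± 5.93 CPM at 2 µM and 118 ± 10.2 CPM at 6 µM (SD, n = 4). Its log2 fold change was 0.40 (adjusted p = 0.000278) at 2 µM and 0.34 (adjusted p = 0.000373) at 6 µM, and the difference between the doses was not called (log2 fold change -0.058, adjusted p = 0.745). Mxd4, a member of the Mad family that binds the same letters with Max and opposes Myc, fell by 0.36 at 2 µM (adjusted p = 0.000163) and by 0.40 at 6 µM (adjusted p = 9.98e-06). Mxi1, of the same family, rose by 0.27 at 6 µM (adjusted p = 0.00452). The calls of Myc, Mxd4 and Mxi1 held in all 24 alternative fits. Whether Myc or the Mad proteins act on the ribosome biogenesis factors in these cells was not tested. Among 12 tested hosts of snoRNAs without a known protein product, Snhg1 rose and Snhg4 fell at 2 µM and none was called at 6 µM. The Snhg1 call ended in 6 of the 12 fits without a single library (adjusted p up to 0.165 without 2 µM replicate 4), and the Snhg4 call in 5 of the 12 (up to 0.127 without 0 µM replicate 2).

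The promoters of the factors were read from RefSeq (GRCm38.p6), from 250 bases before to 50 after each start, for the 37 of 42 genes with an entry. Rrs1, Rrp12, Npm1, Fbl and Bop1 had no entry. The E-box letters CACGTG, which read the same on both strands, were in the promoters of 9 of the 37 genes (24.3%), of 16 of 107 other assembly factors (15%), of 11.4% of 10667 tested genes and of 8.09% of all 27025 genes with a promoter. They were in 5 of 13 promoters of factors called at 6 µM (38.5%) and in 4 of 24 of the rest (16.7%). By role they were in 2 of 4 promoters of Pol I genes, 5 of 15 of small subunit genes, 2 of 9 of large subunit genes, none of 7 of snoRNP genes and none of 2 of genes of several steps. With so few promoters these shares are a description, and a match is neither a bound site nor a cause.

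The 10 matches in 9 genes are shown because CACGTG is what Myc and Mad proteins are known to bind with Max. Each line gives 30 bases, 5′ to 3′ on the strand of the gene, with the E-box in capitals.
Ltv1: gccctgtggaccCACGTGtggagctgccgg
Mybbp1a: aagtgactgtcttctgagccCACGTGtttg
Nop2: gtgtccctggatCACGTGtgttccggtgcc
Pes1: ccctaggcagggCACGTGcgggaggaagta
Rrn3 (distal): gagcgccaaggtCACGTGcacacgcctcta
Rrn3 (proximal): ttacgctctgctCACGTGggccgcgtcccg
Tsr1: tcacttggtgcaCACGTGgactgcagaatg
Utp20: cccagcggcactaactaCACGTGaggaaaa
Utp4: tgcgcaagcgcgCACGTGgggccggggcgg
Wdr43: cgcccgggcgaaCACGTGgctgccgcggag

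Of these genes Mybbp1a, Nop2, Pes1, Utp20 and Wdr43 were called at 6 µM, Tsr1 was called at 2 µM, and Ltv1, Rrn3 and Utp4 were not called. In GRCm38.p6 coordinates the printed stretches are chr10:13193092-13193121 on the minus strand for Ltv1, chr11:72441347-72441376 on the plus strand for Mybbp1a, chr6:125131811-125131840 on the plus strand for Nop2, chr11:3963965-3963994 on the plus strand for Pes1 and chr16:13780472-13780501 on the plus strand for the distal match of Rrn3. The others are chr16:13780639-13780668 on the plus strand for the proximal match of Rrn3, chr11:74898092-74898121 on the plus strand for Tsr1, chr10:88826765-88826794 on the minus strand for Utp20, chr8:106893643-106893672 on the plus strand for Utp4 and chr17:71616220-71616249 on the plus strand for Wdr43. Rrn3 has 2 matches. Mybbp1a, Ltv1, Utp20, Tsr1, Wdr43, Utp4 and Pes1 carry theirs downstream of the start.

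Other promoter letters were searched on both strands as well. The letters CTCGCGA, part of a palindrome frequent in promoters of housekeeping genes, were in 4 of the 37 promoters (10.8%), against 4.67% of the other assembly factors, 4.4% of tested genes and 2.22% of all genes. The ETS family core CCGGAAG was in 13 of 37 (35.1%), against 43.9% of the other assembly factors, 19.3% of tested genes and 9.93% of all genes. It was in 3 of 13 promoters of factors called at 6 µM (23.1%) and in 10 of 24 of the rest (41.7%). In a shorter window, from 100 bases before to 50 after the start, CTCGCGA was in 2 of the 37 promoters (5.41%), against 4.67% of the other assembly factors, 2.84% of tested genes and 1.44% of all genes. In that window CACGTG was in 9 of 37 (24.3%), against 10.3%, 7.32% and 5.0% of the same sets, and CCGGAAG was in 12 of 37 (32.4%), against 39.3%, 15% and 7.52%. The absence of these letters from a window of this length says nothing about the factors that bind them.

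Among the 4 genes of Pol I transcription, Mybbp1a and Polr1a rose at 6 µM and Rrn3 and Polr1b were not called. Mybbp1a, a Myb-binding nucleolar protein found with the ribosomal RNA transcription machinery, stood at 306, 296, 314 and 307 CPM at 0 µM, 349, 337, 344 and 351 CPM at 2 µM and 378, 397, 388 and 381 CPM at 6 µM. Its 3 dose groups did not overlap in any pair. It rose at 6 µM (log2 fold change 0.34, SE 0.036, adjusted p = 2.83e-06) and at 2 µM (log2 fold change 0.18, SE 0.036, adjusted p = 0.0115), and it was the factor that was also higher at 6 than at 2 µM (log2 fold change 0.16, SE 0.036, adjusted p = 0.0294). The gene (ENSMUSG00000040463, chromosome 11, 72441355 to 72451768 on the plus strand, in GRCm38 as are the coordinates of the genes that follow) is among those with an E-box in the promoter window. Without 2 µM replicate 4 its adjusted p at 2 µM was 0.058. The call between 6 and 2 µM ended without any single library of those doses, with adjusted p from 0.0515 (without 2 µM replicate 1) to 0.112 (without 2 µM replicate 2), and it also ended without the 3 most deviating libraries (0.155) and with length and GC trends removed (0.0732).

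Polr1a, which encodes the largest, catalytic subunit of Pol I, stood at 72.6, 72.3, 75.3 and 81.3 CPM at 0 µM, 75.3, 73.4, 79.5 and 83.5 CPM at 2 µM and 89.4, 93.4, 85.7 and 82.3 CPM at 6 µM. All 4 libraries at 6 µM lay above those at 0 µM, while the 2 µM libraries overlapped both (log2 fold change 0.22, SE 0.056, adjusted p = 0.0169 at 6 µM). That call ended without 0 µM replicate 2 (adjusted p = 0.0561), without 6 µM replicate 2 (0.0572) and after removal of trends with gene length and GC content (0.0794). Rrn3, the initiation factor that brings Pol I to its promoter, had a log2 fold change of 0.13 at 6 µM (adjusted p = 0.141). Polr1b, which encodes the next largest subunit, had 0.07 (95% interval -0.14 to 0.27).

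Of the 16 small subunit genes, 6 rose at 6 µM (Rrp12, Utp20, Heatr1, Utp14a, Nop14 and Wdr43) and 3 rose at 2 µM (Nop14, Tsr1 and Wdr43), with median log2 fold changes of 0.20 and 0.127. Rrp12, a HEAT-repeat protein that takes part in export of the small subunit precursor, stood at 26.4, 21.3, 23.8 and 23.4 CPM at 0 µM, 24.4, 25.9, 31.1 and 30.6 CPM at 2 µM and 34.2, 33.4, 27.8 and 30.3 CPM at 6 µM. It had the largest fitted change of the 42 genes at 6 µM (log2 fold change 0.41, SE 0.090, adjusted p = 0.006) and also the largest standard error of the called ones. Utp20, a very large HEAT-repeat scaffold of the processome (ENSMUSG00000004356, chromosome 10, 88746607 to 88826804 on the minus strand), stood at 75.3, 73.6, 80.1 and 76.6 CPM at 0 µM, 84.5, 83.5, 88.1 and 77.4 CPM at 2 µM and 92.8, 102, 90.3 and 95.2 CPM at 6 µM. Its libraries at 6 µM lay above all others (log2 fold change 0.32, SE 0.053, adjusted p = 0.000489), and its difference between 6 and 2 µM had an adjusted p of 0.0858 (0.0204 in DESeq2).

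Utp14a, which activates a helicase that dismantles the processome, stood at 33.6, 33.5, 31.7 and 35.8 CPM at 0 µM, 35.9, 38.6, 34.1 and 37.3 CPM at 2 µM and 40.8, 42.5, 39.9 and 40.9 CPM at 6 µM. The 6 µM libraries were again above all others (log2 fold change 0.29, SE 0.061, adjusted p = 0.00448). Heatr1, Wdr43, Wdr75, Utp4 and Utp15 belong to the subcomplex of the processome that binds the nascent precursor first and is also needed for its transcription. Heatr1 stood at 59.0, 41.3, 52.8 and 49.7 CPM at 0 µM, 51.8, 53.8, 61.7 and 57.5 CPM at 2 µM and 61.4, 64.7, 60.4 and 62.8 CPM at 6 µM. Its 6 µM libraries lay close together above a scattered 0 µM group, in which replicate 2 was low (log2 fold change 0.30, SE 0.080, adjusted p = 0.0207). Without 0 µM replicate 2 the adjusted p was 0.0778, and without 6 µM replicate 2 it was 0.0501.

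Wdr43 stood at 113, 95.5, 99.6 and 94.5 CPM at 0 µM, 109.8, 116, 122 and 123 CPM at 2 µM and 115, 122, 112 and 114 CPM at 6 µM. It was called at both doses, but 0 µM replicate 1 reached into both treated groups (log2 fold change 0.23, SE 0.056, adjusted p = 0.0305 at 2 µM, log2 fold change 0.20, SE 0.056, adjusted p = 0.0271 at 6 µM). The call at 6 µM ended on removal of any single library among 0 µM replicates 2, 3 and 4 or 6 µM replicates 1 and 2 (adjusted p from 0.0554 to 0.092). The call at 2 µM ended on removal of any single library among 0 µM replicates 2 to 4 or 2 µM replicates 2 to 4 (adjusted p from 0.0714 to 0.141). The other 3 genes named here for its subcomplex were not called, with log2 fold changes at 6 µM of 0.14 for Utp4, 0.11 for Wdr75 and 0.10 for Utp15.

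Nop14 and Noc4l encode partners in the small subunit precursor. Nop14 stood at 54.3, 45.7, 46.7 and 42.1 CPM at 0 µM, 59.2, 60.3, 56.3 and 60.9 CPM at 2 µM and 56.8, 62.4, 59.2 and 47.8 CPM at 6 µM. Its 2 µM libraries lay above all 0 µM libraries (log2 fold change 0.33, SE 0.077, adjusted p = 0.0262), while 6 µM replicate 4 lay within the 0 µM range (log2 fold change 0.26, SE 0.077, adjusted p = 0.0385 at 6 µM). Both calls were lost in 6 of the 12 fits that left out a single library. The adjusted p was 0.0511 to 0.103 at 2 µM (on removal of any single library among 0 µM replicates 2 to 4 or 2 µM replicates 1, 2 and 4) and 0.0771 to 0.118 at 6 µM (on removal of any single library among 0 µM replicates 2 to 4 or 6 µM replicates 1 to 3). Noc4l was not called, with a log2 fold change of 0.22 at 6 µM (adjusted p = 0.0668) and no overlap between its 6 and 0 µM libraries.

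Tsr1 and Ltv1 act late, on the small subunit precursor bound for the cytoplasm. Tsr1 stood at 41.0, 36.6, 40.7 and 36.0 CPM at 0 µM, 43.2, 45.7, 48.0 and 47.4 CPM at 2 µM and 43.6, 41.9, 45.9 and 42.7 CPM at 6 µM. The libraries at both doses lay above the 0 µM libraries, and the call was made at 2 µM (log2 fold change 0.26, SE 0.062, adjusted p = 0.03) and not at 6 µM (log2 fold change 0.17, SE 0.062, adjusted p = 0.0937). Its difference between 6 and 2 µM was -0.08 (95% interval -0.21 to 0.05). On removal of any single library among 0 µM replicates 2 and 4 or 2 µM replicates 2 to 4, the adjusted p at 2 µM was 0.0743 to 0.124. Ltv1 had log2 fold changes of 0.09 at 2 µM and 0.01 at 6 µM (95% interval -0.13 to 0.15).

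The remaining small subunit genes were not called in any comparison. At 6 µM the log2 fold change was 0.24 for the helicase gene Ddx10 (adjusted p = 0.081), 0.21 for Rrp9, a protein of the U3 snoRNP, and 0.13 for the GTPase gene Bms1. Nop9, a Pumilio-repeat RNA-binding protein, stood apart from these with 44.0 to 46.2 CPM at 0 µM and 41.2 to 45.7 CPM at 6 µM. Its interval at 6 µM reached from -0.18 to 0.07, so a rise of the size seen in Rrp12 or Utp20 lay outside it.

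Of the 11 large subunit genes, Nop2, Noc2l and Pes1 rose at 6 µM and none was called at 2 µM or between the doses. The median log2 fold change was 0.139 at 6 µM and 0.087 at 2 µM. Nop2, a methyltransferase of the large ribosomal RNA (ENSMUSG00000038279, chromosome 6, 125131909 to 125144753 on the plus strand), stood at 54.0, 54.3, 56.1 and 55.2 CPM at 0 µM, 60.9, 58.4, 56.8 and 59.0 CPM at 2 µM and 64.5, 61.1, 64.7 and 67.0 CPM at 6 µM. The 3 doses did not overlap in any pair (log2 fold change 0.23, SE 0.051, adjusted p = 0.0058 at 6 µM), although the difference between 2 and 0 µM was not called (log2 fold change 0.10, SE 0.051, adjusted p = 0.397).

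Pes1, Bop1 and Wdr12 form the PeBoW complex, which is needed to mature the large subunit RNA. Pes1 stood at 113.7, 117.9, 110.4 and 111.1 CPM at 0 µM, 120.7, 118.3, 122.7 and 120.6 CPM at 2 µM and 124.6, 134.4, 130.1 and 124.8 CPM at 6 µM. It too was ordered by dose without overlap and was called at 6 µM (log2 fold change 0.18, SE 0.043, adjusted p = 0.00932). Its partners were not called. Bop1 had log2 fold changes of -0.001 at 2 µM and 0.11 at 6 µM (95% interval 0.01 to 0.20), and Wdr12 had 0.14 at 6 µM (95% interval -0.02 to 0.29). The 3 intervals at 6 µM overlap, and the differences between the partners were not tested.

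Noc2l, part of a pair with Noc3l that accompanies the large subunit precursor, stood at 74.1, 75.1, 74.6 and 73.7 CPM at 0 µM, 82.9, 79.0, 82 and 78.1 CPM at 2 µM and 86.7, 87.4, 83.0 and 82.3 CPM at 6 µM. Its 0 µM libraries were the tightest of the called genes and all treated libraries lay above them (log2 fold change 0.19, SE 0.046, adjusted p = 0.0106 at 6 µM). Noc3l, by contrast, scattered widely within each dose, from 25 to 34.4 CPM at 0 µM and from 25.6 to 35.2 CPM at 6 µM (log2 fold change 0.07, 95% interval -0.14 to 0.29). Nop16 (0.20, adjusted p = 0.0668) and the helicase gene Ddx18 (0.18, adjusted p = 0.0821) came close to the threshold at 6 µM. Rrp1b (0.11), Rrs1, which helps to place the 5S ribonucleoprotein (0.09), and the GTPase gene Gnl3, also called nucleostemin (0.05), were further from it.

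Of the 8 snoRNP genes, Dkc1 rose at 6 µM and the other 7 were not called at any dose. Their median log2 fold change was 0.103 at 6 µM and 0.055 at 2 µM, the lowest of the 5 roles at both doses. Dkc1, the pseudouridine synthase of the box H/ACA particles, stood at 82.3, 71.0, 74.0 and 71.4 CPM at 0 µM, 78.2, 78.2, 81.0 and 80.7 CPM at 2 µM and 81.5, 95.6, 90.2 and 81.1 CPM at 6 µM. Its 6 µM libraries lay above those at 2 µM, but 0 µM replicate 1 exceeded 2 of them (log2 fold change 0.22, SE 0.059, adjusted p = 0.0205). The call ended on removal of any single library among 0 µM replicates 2 to 4 or 6 µM replicates 2 and 3 (adjusted p from 0.0517 to 0.0774).

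The other H/ACA proteins were not called at 6 µM. Nhp2, an RNA-binding core protein of these particles and the snoRNP gene with the highest level per length, stood at 40.8, 41.8, 41.6 and 37.8 CPM at 0 µM, 43.3, 42.4, 42.9 and 41.7 CPM at 2 µM and 42.3, 46.0, 46.7 and 45.2 CPM at 6 µM. Its 6 µM libraries lay above the 0 µM libraries by a narrow margin, and it was not called (log2 fold change 0.15, SE 0.057, adjusted p = 0.109). Gar1 and Nop10, further core proteins, had 0.10 and 0.04 at 6 µM. Among the box C/D proteins, the methyltransferase gene Fbl had 0.11, and the scaffold genes Nop56 and Nop58 had 0.07 and 0.01 (95% interval -0.12 to 0.14 for Nop58). Nolc1, a chaperone of snoRNPs, had -0.07 at 2 µM and 0.11 at 6 µM, and its 6 µM libraries lay above all at 2 µM (adjusted p = 0.13 between the doses).

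All 3 genes that act at several steps rose at 6 µM, and Ddx21 also rose at 2 µM. Ncl, nucleolin, an abundant nucleolar protein that binds the nascent precursor (ENSMUSG00000026234, chromosome 1, 86344719 to 86359400 on the minus strand), stood at 829.2, 754.8, 740.6 and 724.2 CPM at 0 µM, 835.5, 834.7, 830.3 and 800.8 CPM at 2 µM and 836.2, 917.7, 863.2 and 885.7 CPM at 6 µM. All 6 µM libraries lay above both other doses, though by little over the highest 2 µM library and over 0 µM replicate 1 (log2 fold change 0.20, SE 0.041, adjusted p = 0.00322). Npm1, nucleophosmin, a nucleolar histone and ribosome chaperone, stood at 1098, 1029, 921 and 913 CPM at 0 µM, 1128, 1154, 1080.3 and 1082 CPM at 2 µM and 1073, 1187, 1159.8 and 1132 CPM at 6 µM. It was called at 6 µM (log2 fold change 0.20, SE 0.049, adjusted p = 0.0126) with 0 µM replicate 1 inside the 6 µM range, and not at 2 µM (log2 fold change 0.17, SE 0.049, adjusted p = 0.0832).

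Leaving out 0 µM replicate 1 brought Ncl and Npm1 past the threshold at 2 µM too (adjusted p = 0.0197 and 0.00901), and leaving out 0 µM replicate 3 ended the call of Npm1 at 6 µM (0.0577). Ddx21, a helicase that links Pol I, Pol II and precursor processing (ENSMUSG00000020075, chromosome 10, 62580251 to 62602281 on the minus strand), stood at 199, 185, 192 and 183 CPM at 0 µM, 211, 207, 211 and 239 CPM at 2 µM and 231, 232, 225 and 219.7 CPM at 6 µM. Both treated groups lay above 0 µM (log2 fold change 0.26, SE 0.047, adjusted p = 0.00109 at 6 µM, log2 fold change 0.19, SE 0.047, adjusted p = 0.0304 at 2 µM). Replicate 4 stood high at 2 µM, and without it the adjusted p was 0.166. On removal of any single library among 0 µM replicates 2 to 4 it was 0.0638 to 0.0903.

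**Figure D4:**
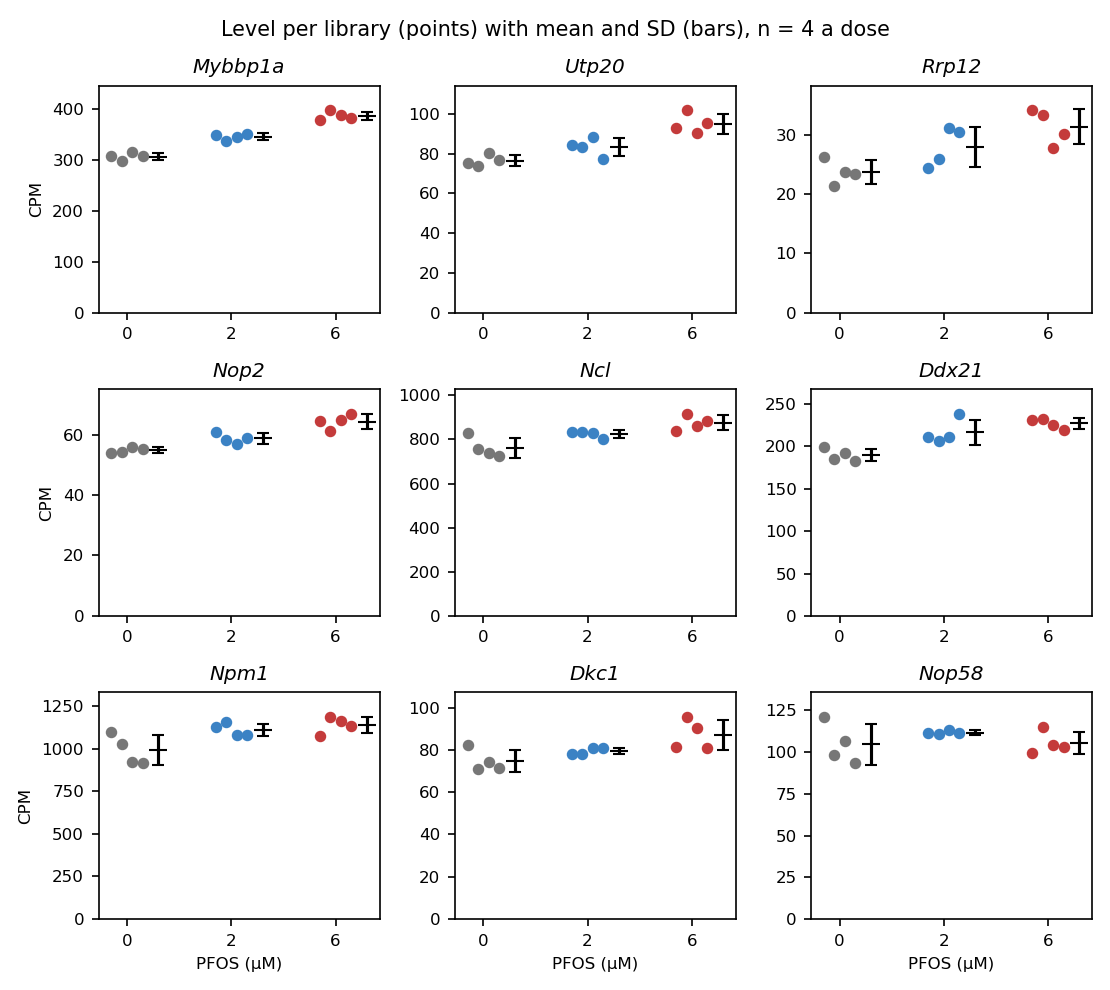
CPM of 9 of the genes in each library (points, 4 per dose) with the mean and SD (black), on axes that start at 0. Mybbp1a, Utp20, Rrp12, Nop2, Ncl and Ddx21 have all 6 µM points above all 0 µM points, Npm1 and Dkc1 were called with overlap, and the doses of Nop58 overlap (99.3 to 115 CPM at 6 µM and 93.4 to 121 CPM at 0 µM).

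The calls differed in how firmly they held. At 6 µM against 0 µM, 9 of the 15 factors were called whichever single library was left out (Mybbp1a, Utp14a, Utp20, Rrp12, Nop2, Pes1, Noc2l, Ncl and Ddx21), and 6 of these in every one of 24 alternative fits (Mybbp1a, Utp20, Rrp12, Nop2, Ncl and Ddx21). Without the 3 most deviating libraries together, 9 factors were called at 6 µM, and the calls of Polr1a (adjusted p = 0.182), Utp14a (0.0513), Nop14 (0.123), Pes1 (0.141), Noc2l (0.0806) and Dkc1 (0.0927) ended. With length and GC trends removed, an alternative chosen after seeing the data, Noc4l (adjusted p = 0.0397), Ddx10 (0.0081), Nop16 (0.0127), Ddx18 (0.0268) and Nhp2 (0.0235) were called as well at 6 µM, and Polr1a was not. Upper-quartile scaling ended the calls of Nop14 at 6 µM (0.0523) and of Wdr43 (0.0536) and Ddx21 (0.0555) at 2 µM, and a fit of only the doses compared ended those of Nop14 at 6 µM (0.059) and Ddx21 at 2 µM (0.0513). At 2 µM no call survived the removal of every single library in turn. The number of factors called went from 5 to 1 without 0 µM replicate 2 or 4. It was 2 without 0 µM replicate 3 or 2 µM replicate 2, 3 without 2 µM replicate 3 and 0 without 2 µM replicate 4. The number of all tested genes called higher at 2 µM moved as well, from 258 to between 72 and 322 without a single library. It was lowest, at 72, without 2 µM replicate 4.

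By dose, 4 factors were called at both 2 and 6 µM (Ddx21, Mybbp1a, Nop14 and Wdr43), 1 at 2 µM alone (Tsr1), 11 at 6 µM alone and 26 at neither. A call at a single dose does not show a difference between the doses. The direct comparison of 6 with 2 µM called Mybbp1a alone, with the limits given for it. Its median over the 42 genes was 0.079, beside -0.005 over all tested genes, and 32 of the 42 fitted values were above 0, against 48.7% of all tested genes. The lowest was Nop58 (-0.08) and the highest Utp20 (0.19).

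Levels between genes were compared per kilobase of the length listed in the deposited table, whose definition is not given in the sources used here. Without PFOS, Npm1 was highest at 372 ± 33.4 CPM per kilobase (SD, n = 4), followed by Ncl at 74.8 ± 4.55 and Mybbp1a at 52.7 ± 1.27. These 3 were separated from each other and from the rest without overlap. The gaps depend on the listed lengths, which are 2665 bases for Npm1, 10188 bases for Ncl and 5803 bases for Mybbp1a. Before division by length, the means at 0 µM were 990 CPM for Npm1 and 762 CPM for Ncl. Pes1 (37.4), Ddx21 (36.7), Bop1 (35.7), Nhp2 (35.4), Nop10 (32.4), Nop56 (30.6) and Wdr43 (29.2) followed, each overlapping its neighbour in this order. At the low end stood Rrp12 (5.49 ± 0.478), Polr1b (2.73 ± 0.325) and Wdr12 (2.23 ± 0.132), which did not overlap each other. Of the PeBoW partners, Pes1 and Bop1 were close to each other in level per length and Wdr12 was lower, and the listed length of Wdr12 (11955 bases) exceeds those of Pes1 (3024 bases) and Bop1 (2957 bases).

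The factors called at 6 µM had a median level of 80.4 CPM, against 43 CPM for the 27 not called. The median listed length was 4130 bases for the called and 3837 bases for the other factors. Across the 42 genes, Spearman's rho of the log2 fold change at 6 µM was 0.07 with length, 0.07 with GC content and 0.12 with mean CPM, as a description over genes that share libraries. Over all tested genes it was 0.13, 0.08 and 0.29, so genes with higher levels tended toward higher fold changes. The values over all tested genes that are set beside those of the 42 were not matched for level. All 42 genes are annotated as protein coding and lie on 18 chromosomes. In 7 of them lie snoRNA genes on the same strand, 21 in all (Nop56, Nop58, Gnl3, Ncl, Wdr43, Tsr1 and Dkc1). Of these 7 hosts, 3 were called at 6 µM with a median log2 fold change of 0.173, and of the other 35, 12 were called with a median of 0.153.

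Counting may blur some of these genes. Exons of 17 factors overlap a gene on the opposite strand, among them Mybbp1a, Polr1a, Heatr1, Nop14, Pes1, Noc2l, Dkc1, Utp14a and Tsr1, and the strand setting of the counts is not given in the sources used here. Of these 17, 8 were called at 6 µM with a median of 0.182, and of the other 25, 7 with a median of 0.134. Npm1, Nop56, Nop10, Ddx18 and Fbl have annotated pseudogenes that carry their name, with which reads may be shared, so their values are uncertain in that respect.

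Other genes of the pathway were read in the same fit. A list of 125 tested assembly factors outside the 42 had 12 genes higher and 2 lower at 6 µM, 4 higher and none lower at 2 µM, and 1 higher (Wdr18) and none lower at 6 against 2 µM. Of all tested genes, 4.58% were called higher and 3.66% lower at 6 µM, 1.61% higher at 2 µM and 0.561% higher at 6 against 2 µM. The list's median log2 fold changes were 0.071 at 6 µM, 0.058 at 2 µM and 0.014 between the doses. Its fitted values were mostly upward too, above 0 for 100 of the 125 genes (80.0%) at 6 µM and for 97 (77.6%) at 2 µM. All 4 libraries at 6 µM lay above all 4 at 0 µM for 21 of its genes (6.39% of all tested genes) and below for 1 (6.15%). The difference between this list and the 42 genes was not tested. Among 17 further genes of Pol I transcription, Tcof1, treacle, which links Pol I to precursor modification, rose from 143 ± 4.85 CPM at 0 µM to 161 ± 5.89 CPM at 2 µM and 176 ± 3.82 CPM at 6 µM (SD, n = 4). Its log2 fold change was 0.17 (adjusted p = 0.0313) at 2 µM and 0.30 (adjusted p = 7.3e-05) at 6 µM. Without 2 µM replicate 4 the call at 2 µM ended (adjusted p = 0.141), as it did without 0 µM replicates 2 or 3 or 2 µM replicates 1 or 3 (0.0546 to 0.105).

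In the same list Taf1d and Taf1a, subunits of the promoter selectivity factor, fell at 6 µM by 0.24 and 0.54 on the log2 scale (adjusted p = 0.0149 and 0.0325), and the Pol I subunit gene Cd3eap rose at 2 µM by 0.34 (adjusted p = 0.0433). Taf1a was low (6.24 ± 1.24 CPM at 0 µM), and its call ended on removal of any single library among 0 µM replicates 1 and 3 or 6 µM replicates 1, 3 and 4 (adjusted p up to 0.141). That of Cd3eap ended in 10 of the 12 fits without a single library (up to 0.13 without 2 µM replicate 4). Polr1c, a subunit shared with RNA polymerase III, and Ubtf, the activator of ribosomal RNA genes, had log2 fold changes of 0.02 and 0.044 at 6 µM (adjusted p = 0.869 and 0.622).

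Of 36 further small subunit genes, Wdr36, Dhx37 and Pdcd11 rose at 6 µM (log2 fold change 0.25, 0.30 and 0.18). Dhx37 is the helicase that Utp14a activates. Of 49 further large subunit genes 6 rose, led by Ddx27 (0.20), Mdn1, a giant ATPase that remodels the precursor (0.28), and the GTPase gene Gtpbp4 (0.21), which also rose at 2 µM (0.25) with Rsl1d1 (0.20). Of 10 snoRNP assembly genes, the ATPase gene Ruvbl2 (0.26) and Naf1, a chaperone of H/ACA particles (0.25), rose at 6 µM. None of 13 tested genes of the RNA exosome, which trims the precursor, was called in any comparison, and the numbers with an unadjusted p under 0.05 were 0 at 6 against 0 µM, 1 (higher) at 2 against 0 µM and 1 (lower) at 6 against 2 µM.

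Of the 12 other factors called higher at 6 µM, 5 were called whichever single library was left out (Tcof1, Wdr36, Dhx37, Ddx27 and Ruvbl2), and the calls of the other 7 ended without at least 1 library. Pdcd11 lost its call on removal of any single library among 0 µM replicates 2 and 3 or 6 µM replicates 2 and 3 (adjusted p up to 0.0979), Mdn1 without 0 µM replicates 2 or 3 (up to 0.0547), Naf1 on removal of any single library among 0 µM replicates 3 and 4 or 6 µM replicates 1 and 4 (up to 0.0695) and Gtpbp4 without 6 µM replicates 1 or 3 (up to 0.0507). At 2 µM Gtpbp4 lost its call without 2 µM replicate 4 (0.0791), and Rsl1d1 in 9 of the 12 fits (up to 0.15 without 0 µM replicate 3). Wdr18 lost its call in 9 of the 12 fits (up to 0.159 without 6 µM replicate 4).

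**Figure D5:**
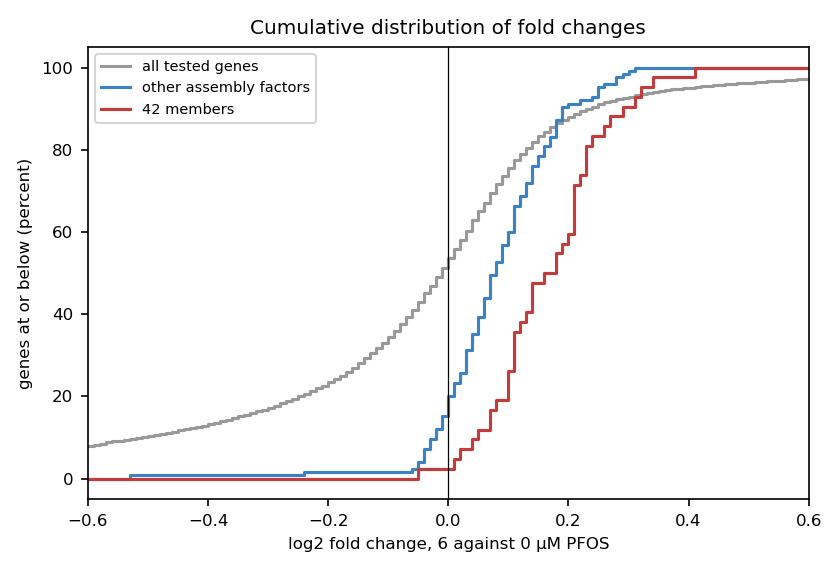
Cumulative share (percent) of genes at or below each log2 fold change at 6 against 0 µM, for the 42 biogenesis genes, 125 other assembly factors and all 16038 tested genes. The curve of the 42 genes crosses 50% at 0.16, that of the other factors at 0.071 and that of all genes at -0.016.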

How the data were processed

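RNA from 12 libraries of C2C12 cells, 4 at each of 0, 2 and 6 µM PFOS, was measured by RNA-seq, and each library was placed in its dose by its sample title. What the authors deposited is a single matrix of raw integer counts for each gene and library. HISAT2 was the aligner and GRCm39 the build named, per the submitters' processing notes. How reads were counted, with which strand setting and annotation, is not given in the sources used here. Of 54409 genes shared with GENCODE M21, 53499 (98.3%) have the coordinates of that annotation, which is on GRCm38, so coordinates from the table are named GRCm38. No row lacked a gene.

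The members, the gene lists and the tests were chosen with earlier results of these data known. Genes were kept by edgeR's filterByExpr (16038 of 54532), scaled by TMM and tested with edgeR's quasi-likelihood test (edgeR 4.0.16, R 4.3.3) in 1 fit over the 12 libraries with 9 residual degrees of freedom. P-values were adjusted by Benjamini-Hochberg over all tested genes and called under 0.05. The common biological coefficient of variation was 10.8%. The scripts were tested on simulated counts.

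Members called in any comparison, and the member of each role with the highest level per length, are given library by library. Of the other lists, up to 3 called genes per list and comparison with the smallest adjusted p are named, plus Myc, Polr1c, Ubtf and Tcof1. Alternatives were DESeq2 1.42.0, limma-voom (limma 3.58.1), other scalings, no count filter, a mean count of at least 50, fits of only the doses compared, a replicate block, leaving out each library or the 3 most deviating ones, and offsets for gene length and GC content. Wdr74, Exosc6, Mycn and Snhg3 were at or near 0 and not tested, and 7 symbols of the lists were not found in the table. A gene of the myoblast marker list is not reported here.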

Additional observations from a re-analysis of the deposited data

Results flagged for a closer look

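In each dose, the library farthest from the other 3 was examined for each of the 42 genes, and it was marked where its gap to the nearest of them, as a share of the whole range, passed Dixon's critical value at the 95% level. This held in 9 of 126 groups of 4 libraries, where chance marks about 5%. At 2 µM replicate 4 was marked in 4 genes. It was high for Ddx21 at 238.9 CPM (206.6 to 211.2 CPM in the other libraries of the dose), for Utp15 at 39.78 CPM (35.32 to 35.85) and for Noc3l at 35.21 CPM (28.27 to 29.25), and low for Ncl at 800.7 CPM (830.3 to 835.5). Without that library, 0 of the 5 factors called at 2 µM were called, and of those 5 only Ddx21 is among the marked genes. The loss was not confined to the 42 genes. Of all tested genes, 72 were called higher and 34 lower at 2 µM without it, against 258 and 119 with it.

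The other 5 marked values were spread over libraries and genes. Nop9 was high in 2 µM replicate 1 at 46.72 CPM (41.15 to 42.07), and Gar1 was low in 2 µM replicate 3 at 28.39 CPM (34.72 to 35.62). Bop1 was high in 6 µM replicate 2 at 120.0 CPM (111.2 to 111.6). Wdr75 was low in 0 µM replicate 2 at 45.07 CPM (48.43 to 48.47), and Rrs1 was low in 0 µM replicate 4 at 35.02 CPM (42.6 to 42.84).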

How the results depend on the processing

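No log2 fold change of the 42 genes that was called changed sign under any of 24 alternatives, and none of the 42 was called lower in any. At 2 against 0 µM, 5 factors were called: 3 with upper-quartile scaling, 3 with the replicate block, 0 to 7 without a single library. At 6 against 0 µM, 15 were called: 9 without the 3 most deviating libraries, 10 to 16 without a single library. At 6 against 2 µM, 1 was called: 3 with DESeq2, 0 without the 3 libraries, 0 with the replicate block, 0 to 1 without a single library. Offsets for length and GC content, chosen after seeing the data, gave 19 at 6 against 0 µM with TMM scaling kept. Where the offsets also rescaled the libraries, 28 were called at 6 against 0 µM, the median over the 42 genes was 0.233 and 4 were called at 6 against 2 µM. In that fit 2281 of all tested genes were called higher at 6 against 0 µM and 294 at 6 against 2 µM. The main fit called 735 and 90, so the larger numbers were not particular to the 42 genes.

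Over all genes at 2 against 0 µM, 258 were called higher and 119 lower: 508 and 215 with DESeq2, 438 and 193 without a count filter, 235 lower with the offsets, 194 lower with offsets and block, 692 higher with rescaling offsets, and 72 to 322 higher and 34 to 168 lower without a single library. At 6 against 0 µM, 735 were higher and 587 lower: 408 and 302 without the 3 libraries, 2281 higher with rescaling offsets, 513 to 789 and 398 to 592 without a single library. At 6 against 2 µM, 90 were higher and 88 lower: 220 and 200 with DESeq2, 177 and 224 without a count filter, 174 and 133 with only the 2 doses fitted, 164 higher with the offsets, 142 higher with offsets and block, 294 higher with rescaling offsets, 55 lower without the 3 libraries, 54 lower with the block, 45 to 138 and 33 to 121 without a single library. Apart from the tests on fewer libraries or other gene sets, the cause was not tested.

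The replicate numbers were not treated as pairs: the correlation of same-numbered libraries' deviations lay between -0.028 and 0.0375 over 12 pairs, none over 0.1, and 5 of 12 libraries correlated best with their own number. With the block, 3 member results lost their call and 123 of 126 kept their side. At an unadjusted p under 0.05, 0 factors were lower in any comparison. The 4 libraries per dose limit the precision, and depth as a limit was not tested.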
